A study of Mus musculus with 20 samples.

Results

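The 33 enhancers around Klf6 on mouse chromosome 13 are described here, of 11222 enhancers counted in the study. A member is an enhancer whose midpoint lies between 5600000 and 6100000 on chr13 of the mm39 build, a window set around Klf6. The window was chosen because its tags were high in cells given both stimuli for 3 h. Every value of that group is therefore given as a description, with no test, and tests are kept for comparisons that leave it out. The early gain is taken over the unstimulated libraries and set against those of each stimulus alone at 3 h. Tests that use these libraries are therefore not independent of the choice. The libraries came from bone marrow-derived macrophages of C57BL/6 mice, grown with macrophage colony-stimulating factor (M-CSF) from conditioned medium. One group was unstimulated (0 h). The others received interferon gamma (IFN-γ), CpG DNA, or both together, each for 3, 9 or 15 h. This gave 10 groups of 2 libraries, which the series calls biological replicates. The growth text also describes a treatment with IL-4 and IL-10, and the treatment text a longer stimulation than the times on the samples. Whether either applies to these libraries is not stated. The design has no untreated cells kept for the later times. A comparison with unstimulated cells therefore also holds any effect of time in culture, and all such comparisons share the same unstimulated libraries.

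Klf6 encodes a zinc finger transcription factor of the Krüppel-like family, which binds GC-rich DNA and is known in macrophages for promoting inflammatory gene expression. IFN-γ is a cytokine that activates macrophages through its cell surface receptor. CpG DNA is sensed in endosomes by TLR9, which signals through MyD88 to NF-κB and AP-1. Active enhancers are themselves transcribed into short capped RNAs, often in both directions, and cap analysis of gene expression (CAGE) counts the capped 5′ ends of such RNAs as tags. A tag count at an enhancer is thus a reading of transcription there, and not of Klf6 mRNA. In bulk cells, fewer transcribing cells and fewer RNAs per cell cannot be told apart. In the RefSeq gene order of GRCm38.p6, the genes on either side of Klf6 are the long noncoding RNA genes 1700016G22Rik and Gm46401, and the next protein-coding genes after it are Pitrm1 and Pfkp. That table is of another build than the enhancers, so which of the 33 enhancers lie within Klf6 or another gene, or nearest to its start, was not determined. Enhancer sequences were not read here for the same reason. The tables count enhancers only, so the labelled cell type was not checked against marker genes.

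CpG DNA is a designed sequence. The treatment text describes an oligonucleotide of 20 bases, and whether it was the one given to these cells is not stated. Its 2 CG dinucleotides are shown in capitals, because TLR9 senses unmethylated CG.
CpG oligonucleotide: tccatgaCGttcctgaCGtt

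Levels are in RPM, the tags of an enhancer scaled to the sequencing depth of its library, and are given as mean ± SD of 2 libraries. Depth was 12776280 to 13855472 tags a library. Between 12879 and 29794 of these fell in enhancers. Total enhancer tags were themselves uneven across groups. They came to 1609 and 2202 RPM with both stimuli at 3 h, 991 and 1315 RPM with IFN-γ at 3 h, and 1593 and 1511 RPM in unstimulated cells. Results on the window are therefore also given below as a share of enhancer tags.

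The 33 enhancers spanned 285 kb and lay in 3 stretches separated by gaps of over 20000 bases, a distance chosen after the positions were seen. The first stretch held 5 enhancers at chr13:5654080-5665178 and the second 3 at chr13:5755061-5776269. The third held 25 at chr13:5817865-5939126, a length of 121 kb, and 85.0% of the 1853 tags of the window. Median length was 343 bases, against 288 for all enhancers, and median depth was 31 tags over the 20 libraries, against 21. Both neighbouring windows of 500 kb held 3 enhancers each. Below the window these summed to 0.0362 RPM in unstimulated cells and 0.402 RPM with both stimuli at 3 h, and above it to 0.476 and 1.06 RPM. At the edges, the last enhancer outside on the low side (chr13:5561761-5562176) had 9 tags and the first inside (chr13:5654080-5654539) 128. On the high side the last inside (chr13:5938856-5939126) had 45 tags and the first outside (chr13:6177501-6177615) 11.

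One enhancer, chr13:5839351-5839665, held 498 tags, 26.9% of the window, and ranked 15 among all 11222 enhancers by total tags. It is called the leading enhancer, and others are named by the distance of their midpoint from it. The 9 enhancers with at least 60 tags held 67.9% of the tags of the window, and the other 24 had 6 to 58 tags each. In the map of tags by position, the unstimulated cells showed low bars throughout, and the highest bars with both stimuli at 3 h lay in the third stretch.

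**Figure D1:**
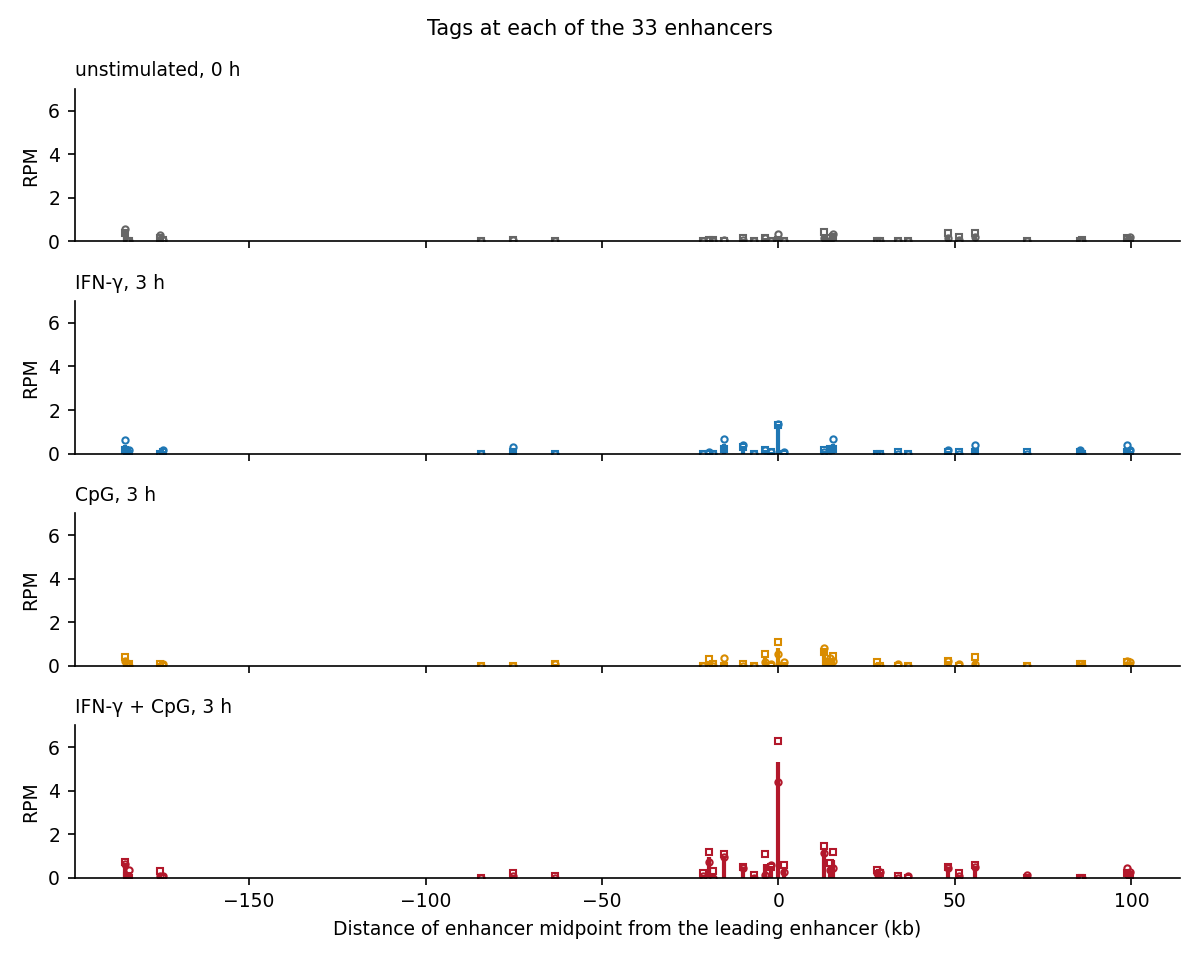
RPM at each of the 33 enhancers (vertical axis, same scale in all panels) against distance from the leading enhancer in kb, for unstimulated cells and for 3 h of IFN-γ, CpG or both; bars are means of 2 libraries, circles replicate 1 and squares replicate 2. The leading enhancer reached 5.34 RPM with both stimuli and 0.218 RPM in unstimulated cells.

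Summed over all 33 enhancers, tags were lowest in unstimulated cells and highest with both stimuli at 3 h. The 2 unstimulated libraries had 3.04 and 3.27 RPM (86 tags together). The 2 libraries with both stimuli at 3 h had 13.2 and 19.1 RPM (441 tags), a mean of 16.1 ± 4.14, which was 5.11-fold above unstimulated cells (95% interval 4.04 to 6.51). This and the other exact intervals cover counting error only, not the spread between libraries. Neither library of one group came near those of the other.

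With both stimuli the sum was 8.31 ± 0.0226 RPM at 9 h (8.33 and 8.29) and 9.49 ± 0.587 RPM at 15 h (9.07 and 9.90). The level at 3 h was thus 1.94-fold that at 9 h (1.64 to 2.29) and 1.70-fold that at 15 h (1.45 to 1.99). Both later groups stayed above every single-stimulus library. IFN-γ alone gave 4.95 ± 1.77 RPM at 3 h (6.20 and 3.69), 4.82 ± 0.790 at 9 h (4.26 and 5.38) and 4.59 ± 0.141 at 15 h (4.69 and 4.49). CpG alone gave 4.50 ± 0.657 RPM at 3 h (4.03 and 4.96), 6.51 ± 1.65 at 9 h (7.67 and 5.35) and 6.90 ± 0.240 at 15 h (7.07 and 6.73). Libraries of the 3 IFN-γ times overlapped with each other. By contrast, both CpG libraries of 3 h lay below those of 9 and 15 h.

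In descending order of the mean, the groups with both stimuli at 3, 15 and 9 h came first and did not overlap with each other or with CpG at 15 h. From CpG at 15 h down through CpG at 9 h, IFN-γ at 3, 9 and 15 h and CpG at 3 h, each neighbour overlapped with the next. The last of these, CpG at 3 h, did not overlap with unstimulated cells. With 2 libraries a group, an exact permutation test cannot give a p below 0.333, and no test of the sum was made.

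**Figure D2:**
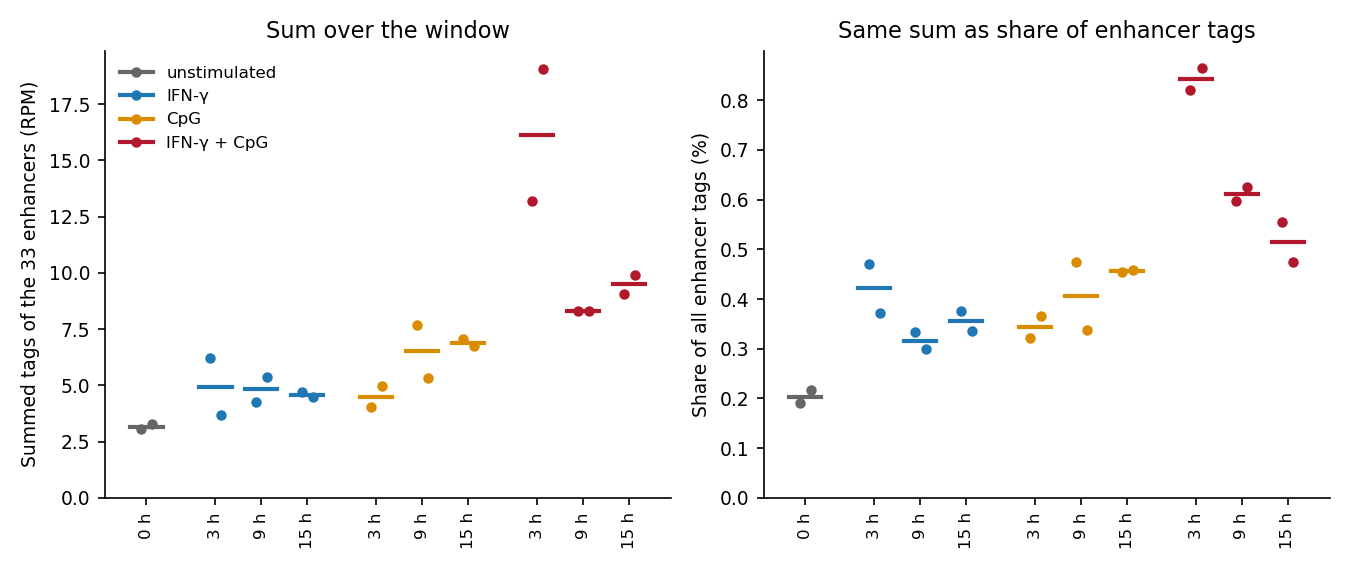
Summed tags of the 33 enhancers in each library, as RPM (left) and as percent of all enhancer tags (right), by stimulus and time; points are libraries and lines are means of 2. Both libraries with both stimuli at 3 h lie above all other libraries in both panels, from 13.2 to 19.1 RPM and from 0.821% to 0.866% of enhancer tags.

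As a share of enhancer tags, the window took 0.204% ± 0.0184 in unstimulated cells, 0.422% ± 0.0697 with IFN-γ at 3 h and 0.343% ± 0.0305 with CpG at 3 h. With both stimuli it took 0.844% ± 0.0316 at 3 h, 0.612% ± 0.0199 at 9 h and 0.515% ± 0.0562 at 15 h. On this scale the share with both stimuli decreased over the 3 times, whereas in RPM the sum at 15 h was above that at 9 h. The distance of both stimuli at 3 h from IFN-γ at 3 h was log2 1.71 in RPM and 1.00 as a share, and that from CpG at 3 h was 1.84 and 1.30. The denominator of the share, all enhancer tags together, had its highest mean with both stimuli at 3 h and its lowest with IFN-γ at 3 h.

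In RPM, the early gain with both stimuli was larger than the gains from each alone put together. At 3 h the window gained 1.79 RPM over unstimulated cells with IFN-γ and 1.34 RPM with CpG, a sum of 3.13 RPM, and 13.0 RPM with both. At 9 h the gains were 1.66, 3.35 and 5.15 RPM, so that both stimuli together came to about the sum of 5.02 RPM. At 15 h they were 1.43, 3.74 and 6.33 RPM, against a sum of 5.18 RPM. The part beyond the sum was 9.85 RPM at 3 h, 0.138 RPM at 9 h and 1.15 RPM at 15 h. As a share of enhancer tags, the gain with both was still above the summed gains at 3 h, by a smaller ratio. At 9 h it was also above them, with mean shares of 0.612% for both, 0.316% for IFN-γ, 0.407% for CpG and 0.204% for unstimulated cells. At 15 h it was below them, with mean shares of 0.515% for both, 0.356% for IFN-γ, 0.456% for CpG and 0.204% for unstimulated cells. The leading enhancer accounted for part of the excess at 3 h, with 5.12 RPM for both against 1.69 RPM for the sum. Without it the other 32 enhancers gained 7.86 RPM with both against 1.44 RPM. These are differences of means of 2 libraries, and the excess at 3 h is the value the window was chosen for. A response beyond the sum in RPM need not be beyond it in log2, the scale of the test given below for 9 and 15 h. The 2 are therefore not to be set side by side.

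**Figure D3:**
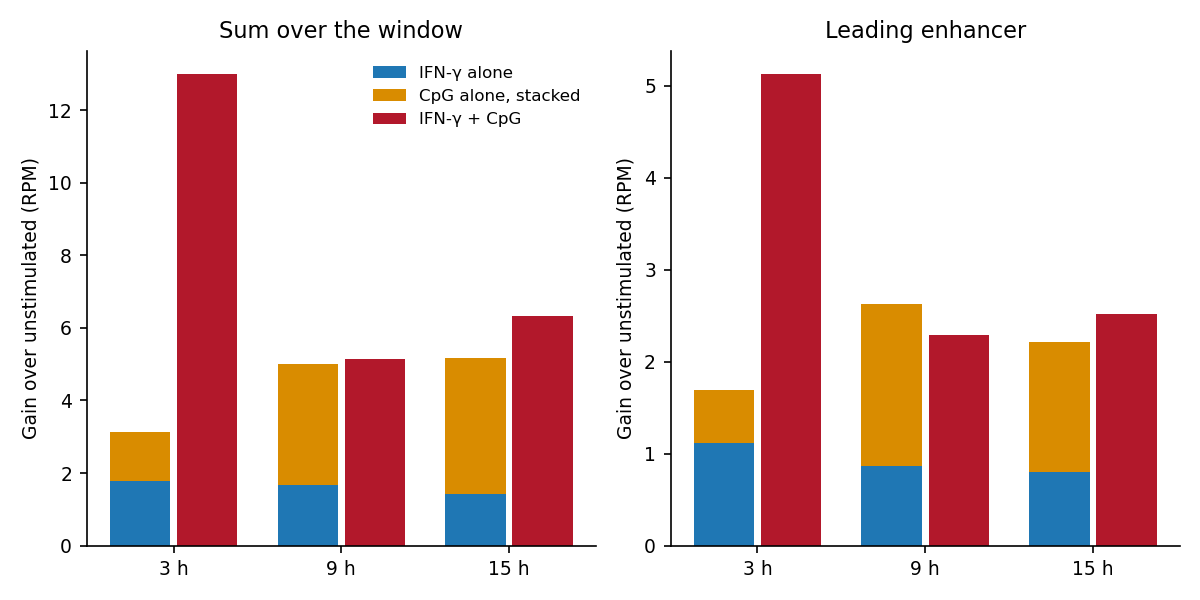
Gain in RPM over unstimulated cells (difference of means of 2 libraries, no error drawn) at 3, 9 and 15 h for the whole window (left) and the leading enhancer (right); the stacked bar adds the gains of IFN-γ alone and CpG alone, and the single bar is the gain with both. At 3 h the gain with both was 13.0 RPM against a stacked 3.13 RPM for the window, and at 9 h 5.15 against 5.02 RPM.

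The gain was spread over the window unevenly. With both stimuli at 3 h, both libraries lay above both unstimulated libraries at 16 of the 33 enhancers (24.1% of all enhancers did so). Of the 9 enhancers with at least 60 tags, 8 lay above (35.2% of all enhancers of that depth). Both libraries lay above both IFN-γ libraries of 3 h at 15 of 33 (22.0% of all) and above both CpG libraries of 3 h at 14 of 33 (22.9% of all). The highest group mean was that with both stimuli at 3 h at 14 of 33 enhancers (17.0% of all), and all 14 lay in the third stretch, none in the first or second. For the others it was both stimuli at 15 h at 7, CpG at 15 h at 4, IFN-γ at 9 h at 3, both stimuli at 9 h at 2, and IFN-γ at 15 h, CpG at 9 h and unstimulated cells at 1 each. The window was chosen on the first of these groups, so nothing is read from the shares that involve it. The first stretch summed to 0.768 ± 0.244 RPM in unstimulated cells and 1.13 ± 0.0330 RPM with both stimuli at 3 h. The third went from 2.32 ± 0.410 to 14.8 ± 4.01 RPM.

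The leading enhancer had few tags in unstimulated cells and a higher mean under every stimulus and time. It had 5 and 1 tags in the unstimulated libraries, or 0.362 and 0.0744 RPM, and ranked 2186 among all enhancers by group mean. With both stimuli it had 61 and 85 tags at 3 h (4.40 and 6.28 RPM), 31 and 35 at 9 h (2.35 and 2.66 RPM) and 32 and 40 at 15 h (2.36 and 3.12 RPM). It ranked 3, 8 and 12 of all enhancers in these groups. The mean at 3 h, 5.34 ± 1.33 RPM, was 24.5-fold that of unstimulated cells (10.9 to 67.1), 4.00-fold that of IFN-γ at 3 h (2.75 to 5.96) and 6.71-fold that of CpG at 3 h (4.24 to 11.2). Both libraries lay above all other libraries of the study.

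IFN-γ alone gave the leading enhancer 18 and 17 tags after 3 h, 15 and 15 after 9 h, and 11 and 16 after 15 h. The means were 1.33 ± 0.0371, 1.09 ± 0.00503 and 1.01 ± 0.258 RPM. It rose against unstimulated cells at 3 h by log2 2.99 ± 0.56 (SE; edgeR adjusted p = 1.43e-05). It also rose at 9 h by 2.41 ± 0.58 (edgeR adjusted p = 9.38e-04) and at 15 h by 2.48 ± 0.59 (edgeR adjusted p = 0.00111). The 9 h call was lost without unstimulated replicate 2 (adjusted p 0.000183 to 0.0692 over all alternatives, edgeR, DESeq2 and limma fits included). The 15 h call was lost without that library, without IFN-γ 15 h replicate 2 and in limma with a pseudocount of 2 (0.000452 to 0.0888 over all alternatives).

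With CpG alone it had 7 and 14 tags at 3 h, 36 and 17 at 9 h and 16 and 26 at 15 h, or 0.796 ± 0.386, 1.97 ± 1.00 and 1.63 ± 0.569 RPM. Its difference from unstimulated cells at 3 h, log2 2.09 ± 0.62, just missed the threshold (edgeR adjusted p = 0.0512) and passed it in 4 of the alternatives tried. It rose at 9 h by 3.15 ± 0.52 (edgeR adjusted p = 6.55e-07) and at 15 h by 2.92 ± 0.54 (edgeR adjusted p = 2.51e-05), and both calls held in every alternative tried. At 3 h the CpG libraries lay below the IFN-γ libraries, and at 9 and 15 h they lay above them, by 0.886 and 0.618 RPM in the mean. None of these 3 differences passed the test (edgeR adjusted p = 0.153, 0.145 and 0.457).

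Under both stimuli the leading enhancer rose against unstimulated cells by log2 3.76 ± 0.50 at 9 h (edgeR adjusted p = 1.03e-11) and by 3.48 ± 0.50 at 15 h (edgeR adjusted p = 4.69e-10), and both calls held in every alternative tried. It was higher than with IFN-γ alone at 9 h by 1.35 ± 0.36 (edgeR adjusted p = 0.0106). That call was lost in DESeq2, with whole-library totals, in limma with a pseudocount of 0.1, and without either IFN-γ 9 h library or both-stimuli 9 h replicate 2 (0.00103 to 0.242 over all alternatives). At 15 h the difference was 1.01 ± 0.37 (edgeR adjusted p = 0.0614), and it passed with whole-library totals, with the stricter filter and in all 3 limma fits. Against CpG alone the difference was 0.61 ± 0.33 at 9 h and 0.56 ± 0.34 at 15 h, and neither passed (edgeR adjusted p = 0.260 and 0.350). At both times the combination was thus above IFN-γ and CpG in the mean, and whether its difference from IFN-γ was called changed with the fit at both times.

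**Figure D4:**
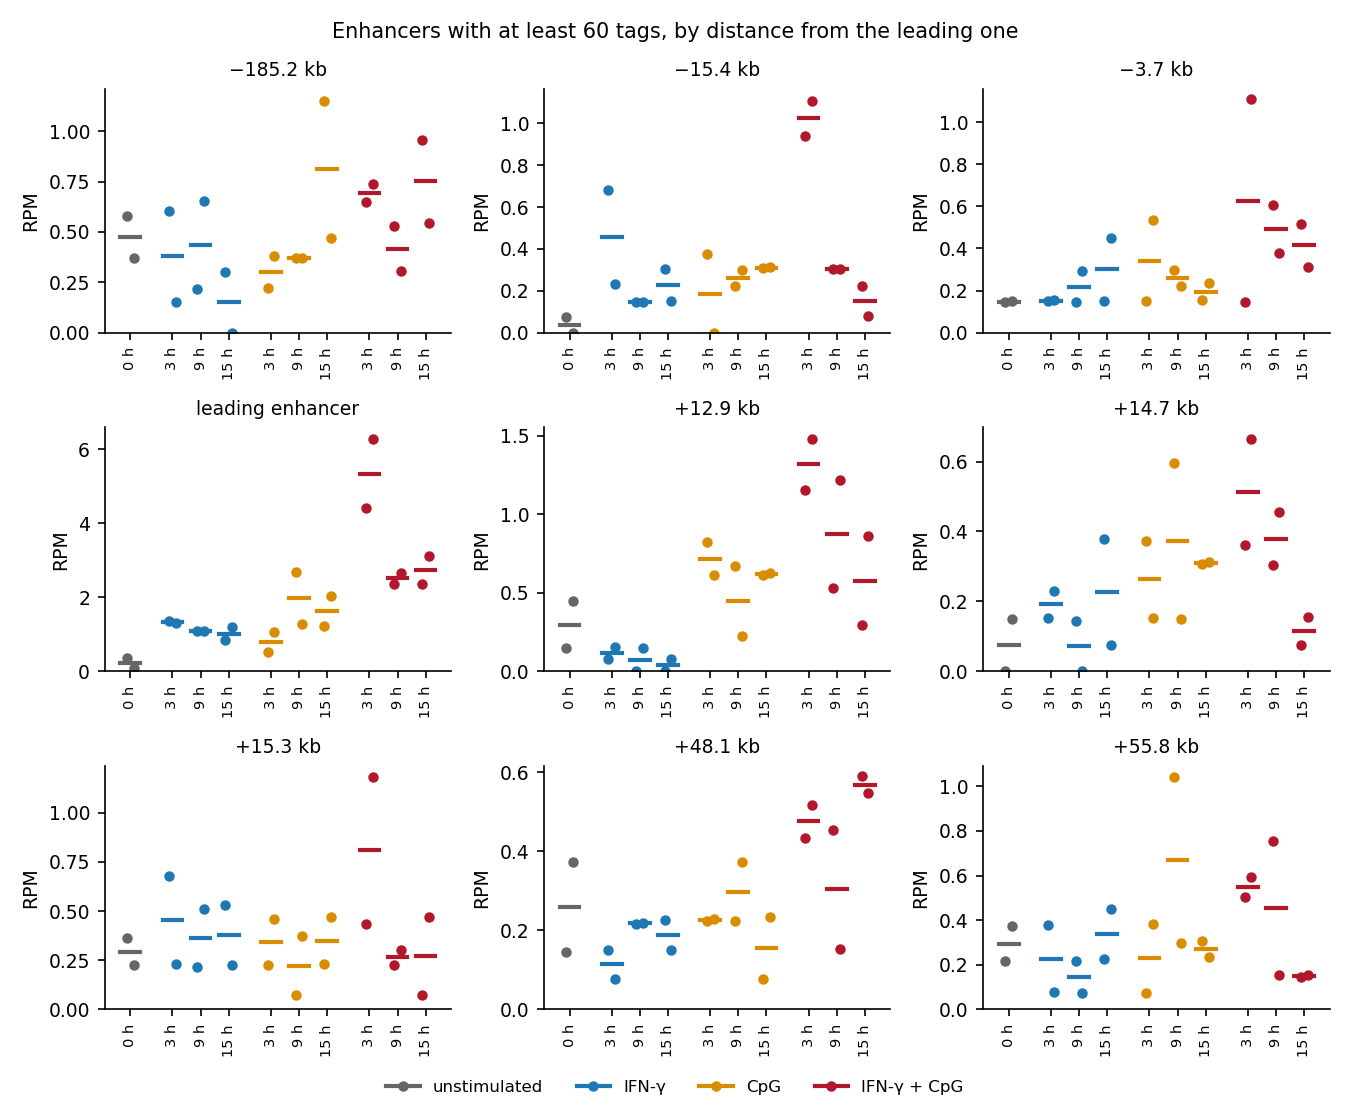
RPM in each library at the 9 enhancers with at least 60 tags, one panel each with its own vertical scale, titled by distance from the leading enhancer; points are libraries and lines are means of 2, by stimulus and time. The +12.9 kb enhancer had at most 0.154 RPM in the IFN-γ libraries and at least 0.223 RPM in the CpG libraries.

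The +12.9 kb enhancer (chr13:5852178-5852615, 135 tags) had few tags with IFN-γ and more with CpG. It had 2 and 6 tags in unstimulated cells (0.296 ± 0.213 RPM). In the IFN-γ libraries it had 1 and 2 tags after 3 h, 0 and 2 after 9 h, and 0 and 1 after 15 h. With CpG it had 11 and 8, 9 and 3, and 8 and 8 tags at the same times. All CpG libraries lay above all IFN-γ libraries, although neither stimulus passed the test against unstimulated cells at any time (edgeR adjusted p = 0.168 to 0.639). CpG was above IFN-γ at 3 h by log2 2.41 ± 0.81 (edgeR adjusted p = 0.0345) and at 15 h by 3.54 ± 1.04 (edgeR adjusted p = 0.00984), and at 9 h the difference of 2.38 ± 0.96 was not called (edgeR adjusted p = 0.0563). Both calls were lost in DESeq2 and without any one of the 4 libraries compared, and that at 3 h also without a filter and in limma with a pseudocount of 2. The 9 h difference passed with the stricter filter and in limma with a pseudocount of 0.1.

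With both stimuli the +12.9 kb enhancer had 16 and 20 tags at 3 h, 7 and 16 at 9 h and 4 and 11 at 15 h. The 3 h mean of 1.32 ± 0.228 RPM was 4.45-fold that of unstimulated cells (2.05 to 11.2), 11.5-fold that of IFN-γ (3.63 to 58.3) and 1.84-fold that of CpG (1.02 to 3.38). The level with both stimuli was thus nearer to that of CpG alone than to that of IFN-γ alone. It was above IFN-γ at 9 h by log2 3.60 ± 0.82 (edgeR adjusted p = 0.00181) and at 15 h by 3.24 ± 1.07 (edgeR adjusted p = 0.0347), and above unstimulated cells at 9 h by 1.85 ± 0.62 (edgeR adjusted p = 0.0193). The first of these was lost without both-stimuli 9 h replicate 2 or without IFN-γ 9 h replicate 1. The second was lost in DESeq2, without a filter, in limma with a pseudocount of 2, without either IFN-γ 15 h library and without both-stimuli 15 h replicate 2. The third was lost in 8 alternatives, among them DESeq2, all 3 limma fits and the fits without both-stimuli 9 h replicate 2 or unstimulated replicate 1.

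The -15.4 kb enhancer (chr13:5823868-5824274, 83 tags) had few tags in unstimulated cells and its highest level with both stimuli at 3 h. It had 1 and 0 tags in unstimulated cells, and 13 and 15 with both stimuli at 3 h, 4 and 4 at 9 h and 3 and 1 at 15 h. The 28 tags at 3 h against 1 gave a ratio of 28.3 with an interval from 4.61 to 1140. Its level with both stimuli at 3 h, 1.02 ± 0.120 RPM, was 3.37-fold that at 9 h (1.50 to 8.55) and 6.84-fold that at 15 h (2.36 to 26.5). IFN-γ alone gave 9 and 3 tags at 3 h, 2 and 2 at 9 h and 4 and 2 at 15 h. It rose with IFN-γ at 3 h by log2 3.74 ± 1.09 (edgeR adjusted p = 0.0123), a call lost in DESeq2, without a filter, in limma with a pseudocount of 2, and without either unstimulated library or IFN-γ 3 h replicate 1. With both stimuli at 9 h the difference from unstimulated cells, 3.04 ± 1.20, just missed the threshold (edgeR adjusted p = 0.0504) and passed it with RLE factors, with the stricter filter and in limma with a pseudocount of 0.1. CpG alone gave 5 and 0, 3 and 4, and 4 and 4 tags, with no call at any time (edgeR adjusted p = 0.131 to 0.417).

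The first enhancer of the window, at -185.2 kb (chr13:5654080-5654539, 128 tags), had tags in unstimulated cells already, 8 and 5. It had 9 and 10 tags with both stimuli at 3 h, 1.46-fold the unstimulated level with an interval that holds 1 (0.682 to 3.21). IFN-γ at 15 h gave 4 and 0 tags and CpG at 15 h 15 and 6, its highest group. The difference between them, log2 2.13 ± 0.75, was called (edgeR adjusted p = 0.0323) and was lost in DESeq2, without a filter and without IFN-γ 15 h replicate 2 or CpG 15 h replicate 1. Its 2 libraries with both stimuli at 3 h lay above those of unstimulated cells but overlapped with those of both stimuli at 15 h.

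The remaining 5 of the 9 deeper enhancers had 67 to 100 tags each. At -3.7 kb (chr13:5835558-5835993, 84 tags) the libraries with both stimuli at 3 h had 2 and 15 tags, so that the mean of 0.626 ± 0.682 RPM rested on 1 library and overlapped with the unstimulated cells, at 2 and 2 tags. At +15.3 kb (chr13:5854571-5855131, 100 tags) they had 6 and 16 tags, against 5 and 3. At +14.7 kb (chr13:5853967-5854406, 67 tags) they had 5 and 9 tags, against 0 and 2. These 3 had their highest mean with both stimuli at 3 h, and no comparison called them. At +48.1 kb (chr13:5887258-5887891, 75 tags, the longest of the window at 633 bases) both stimuli gave 6 and 7 tags at 3 h, 6 and 2 at 9 h and 8 and 7 at 15 h, against 2 and 5 in unstimulated cells, with no call. At +55.8 kb (chr13:5895137-5895417, 89 tags) CpG at 9 h gave 14 and 4 tags and IFN-γ at 9 h 3 and 1. That difference of log2 2.02 ± 0.79 was called (edgeR adjusted p = 0.0482). It was lost in DESeq2, without a filter, in limma with a pseudocount of 0.1, with the replicate number as a block, without CpG 9 h replicate 1, without either IFN-γ 9 h library and when the libraries with both stimuli at 3 h were left out of the fit (0.0301 to 0.680 over all alternatives).

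Among the 24 enhancers with fewer tags, 3 passed the filter on low counts only because of their tags with both stimuli at 3 h, so their values are described and no test of them is given. The -19.6 kb enhancer (chr13:5819692-5820039, 58 tags) had 1 and 1 tags in unstimulated cells, 10 and 16 with both stimuli at 3 h, 0 and 4 at 9 h and 3 and 5 at 15 h. The -2.2 kb enhancer (chr13:5837081-5837442, 55 tags) had no tag in unstimulated cells, 8 and 7 with both stimuli at 3 h, 1 and 3 at 9 h and 10 and 5 at 15 h. Its level at 15 h was at least 5.12-fold higher than that of unstimulated cells, taken at a floor of 3 tags in the group as a whole. The +98.6 kb enhancer (chr13:5938029-5938267, 48 tags) went the other way at 9 h. It had 4 and 5 tags in the IFN-γ libraries and no tag in either CpG library, at least 2.92-fold lower on the same floor. Another of the 24, the -10.0 kb enhancer (chr13:5829269-5829691, 41 tags), passed the filter also without the libraries given both stimuli for 3 h. Its tags were 1 and 2 in unstimulated cells, and at 3 h 5 and 4 with IFN-γ, 0 and 1 with CpG and 6 and 7 with both. No comparison called it.

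The 20 enhancers that did not pass the filter held 6 to 45 tags each and 21.2% of the tags of the window. A sum was made over all 24 enhancers with fewer than 60 tags, which hold these 20 and the ones of that depth that passed the filter. In it, unstimulated libraries had 14 and 15 tags, IFN-γ 3 h libraries 26 and 14 and CpG 3 h libraries 14 and 15. Libraries with both stimuli had 58 and 73 tags at 3 h, 30 and 31 at 9 h and 52 and 47 at 15 h. The 3 h group was thus the highest in the sum of the 24, with the 15 h group closer to it than in the leading enhancer. That sum includes the 3 enhancers that passed the filter only through their tags at 3 h. No high 3 h group is therefore read for the 20 that did not pass. Of the 33 enhancers, 14 had no tag in unstimulated cells, where a count of 0 allows up to 3 tags over the group. Examples among the 20 that did not pass the filter are the +1.6 kb and +28.8 kb enhancers. Under both stimuli at 3 h the first (chr13:5840917-5841285) had 4 and 8 tags, and the second (chr13:5868228-5868380) 4 and 3. Both were chosen after their values were seen. The number of enhancers of the window with a tag was 16 and 18 in the unstimulated libraries and 25 to 28 in the 6 libraries with both stimuli.

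Across the window, few enhancers were called in any comparison that leaves out both stimuli at 3 h. Of the 33, 13 passed the filter on low counts, and 10 did so without the libraries that had both stimuli at 3 h. Calls are counted over these 10. With IFN-γ against unstimulated cells, edgeR called 2 of 10 at 3 h (10.5% of all tested enhancers were called), 1 at 9 h (19.4%) and 1 at 15 h (15.0%), all higher. With CpG it called 0 of 10 at 3 h (1.54%), where 2 had an unadjusted p under 0.05, DESeq2 called 0 and limma 0 to 1. It called 1 at 9 h (6.98%) and 1 at 15 h (7.59%), both the leading enhancer. With both stimuli it called 2 at 9 h (22.3%) and 1 at 15 h (25.3%), all higher. With 10 enhancers, 1 call more or less moves a share by 10 percentage points, and nothing particular to the window is read from these counts.

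The median log2 difference of the 10 enhancers from unstimulated cells was 0.77, 0.07 and 0.59 with IFN-γ at 3, 9 and 15 h, beside 0.01, 0.10 and 0.00 over all tested enhancers. With CpG it was 0.96, 0.73 and 0.65, beside 0.00, 0.05 and 0.06. With both stimuli it was 1.38 at 9 h and 0.71 at 15 h, beside 0.32 and 0.31. Scaling to whole-library totals in place of the trimmed mean moved the median of all tested enhancers by -0.28 to 0.47 over the comparisons, so a difference of that size depends on the scale.

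Between stimuli, edgeR called 2 of 10 enhancers higher with both than with IFN-γ alone at 9 h (6.45% of all tested called) and 1 at 15 h (9.17%). For both stimuli against CpG alone it called 0 at 9 h (6.55%) and 0 at 15 h (5.05%). There, 1 and 0 enhancers had an unadjusted p under 0.05, and DESeq2 and limma also called 0. For CpG against IFN-γ it called 1 at 3 h (10.3%), 1 at 9 h (21.9%) and 2 at 15 h (17.4%), all higher with CpG. The test of whether log2 responses to the stimuli add up called 0 of 10 at 9 h (0%) and 0 at 15 h (0.107%). An unadjusted p under 0.05 was reached by 2 and 3, and DESeq2 and limma called 0. For the leading enhancer the log2 response to both was below the sum of the single responses by 1.80 ± 0.69 at 9 h and 1.92 ± 0.70 at 15 h (edgeR adjusted p = 0.343 and 0.294). The change of the CpG against IFN-γ difference from 3 h to 9 h (0.0358% of all tested called) and to 15 h (0.107%) was tested as well, a comparison added after the data were seen. It was called at 0 of 10 enhancers at both times, with 1 and 2 at an unadjusted p under 0.05 and 0 in DESeq2 and limma. In RPM, the gains of the leading enhancer of 2.29 and 2.52 with both stood beside sums of 2.62 and 2.21.

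The group means of the 8 other deep enhancers correlated with those of the leading one at r = 0.420 to 0.774 over the 10 groups, on log2(RPM + 0.5). The closest were the -3.7 kb (0.774) and -15.4 kb (0.767) enhancers and the least alike the +55.8 kb one (0.420). Outside the window, the 3 enhancers whose group means were most like the sum of the window were chr1:133057486-133058127 (r = 0.966), chr12:32866016-32866323 (0.931) and chr2:127900588-127900782 (0.915), among 1612 enhancers of at least 60 tags with a median r of 0.147. The first had 0.0744 RPM in unstimulated cells and 1.46, 0.720 and 0.882 RPM with both stimuli at 3, 9 and 15 h. These correlations describe 10 means of 2 libraries each, share those libraries, and were ranked from many, so no test is attached.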

How the data were processed

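Capped RNA 5′ ends were measured by nAnT-iCAGE in 20 libraries. The authors deposited a raw tag count for each of 11222 enhancers in each library, not normalized. The submitters' processing notes name the mm39 build and the tools HISAT2 2.1.0, BWA 0.7.10, Trimmomatic 0.38 and FastQC 0.11.5. How enhancers were called is not given in the sources used here. Besides the counts, the authors deposited RPM values of the same enhancers, and dividing each count by its RPM gave 1 library total per library, so that 100% of the RPM values came out as whole tags (tolerance 1e-06), equal to the counts. A count test on those recovered tags therefore gave the same calls, with 2792 enhancers tested and the same number called in each comparison. Coordinates are as deposited, and whether starts count from 0 or 1 is not stated. Lengths are end minus start.

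Groups and replicate numbers came from the sample titles and characteristics. The main test was the two-sided quasi-likelihood test of edgeR 4.0.16 (robust fit, TMM factors) under R 4.3.3, fitted with 1 coefficient per group and 10 residual degrees of freedom to enhancers kept by filterByExpr (minima of 5 for the count and 15 for the total). A call is a Benjamini-Hochberg adjusted p under 0.05 over all 2792 tested enhancers. Standard errors were derived from F and the log2 change. The alternatives changed the scaling (RLE factors or whole-library totals), the filter (none, or minimum count 10 with minimum total 30), the tool (DESeq2 1.42.0, or limma 3.58.1 on log2 of RPM plus 0.5, 0.1 or 2) and the fit (a block for the replicate number, only the groups compared, or 1 library left out). Leaving out the libraries with both stimuli at 3 h was added after the data were seen. Exact 95% intervals of a ratio of RPM are conditional on the tags of the 2 groups.

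Enhancers with at least 60 tags over the 20 libraries were named one by one. Others chosen otherwise are those called, those with fewer tags that passed the filter, those at the edges and those said to be chosen after their values were seen. The window, its members and this rule were chosen with earlier results of these data known. The test scripts were tested on simulated data. No pairing of libraries by replicate number was seen: over 45 pairs of groups, deviations of equal numbers correlated at -0.0529 to 0.0469. Many of the enhancers used have few tags, so this check cannot exclude pairing.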

Additional observations from a re-analysis of the deposited data

Results flagged for a closer look

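The cases below were picked after every enhancer with at least 60 tags was searched, over all contrasts of stimuli and pairs of times. At the leading enhancer (chr13:5839351-5839665), both CpG libraries lay below both IFN-γ libraries at 3 h, by 0.538 RPM in the mean (CpG minus IFN-γ, -0.538), and above them at 9 h (0.886) and 15 h (0.618). The difference moved by 1.42 RPM from 3 h to 9 h and by 1.16 RPM from 3 h to 15 h. On the log2 scale the change was 1.64 ± 0.58 and 1.35 ± 0.59, and neither passed the test of the difference itself (edgeR adjusted p = 0.314 and 0.418, unadjusted 0.00442 and 0.0227), which was added after the data were seen.

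At -15.4 kb (chr13:5823868-5824274), both libraries with both stimuli lay above those of CpG at 3 h (by 0.837 RPM) and at 9 h (by 0.0433 RPM), and below them at 15 h (-0.161 RPM). The order at 9 h rested on 4 and 4 tags with both stimuli against 3 and 4 with CpG. At 15 h the tags were 3 and 1 against 4 and 4. The difference moved by -0.997 RPM from 3 h and by -0.204 RPM from 9 h to 15 h. These changes were not tested.

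At +55.8 kb (chr13:5895137-5895417), both libraries with both stimuli lay above unstimulated, IFN-γ and CpG libraries at 3 h and below all of them at 15 h. From 3 h to 15 h the difference moved by -0.397 RPM against unstimulated cells, by -0.507 RPM against IFN-γ and by -0.439 RPM against CpG. With both stimuli this enhancer had 7 and 8 tags at 3 h and 2 and 2 at 15 h. These changes were not tested.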

How the results depend on the processing

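Of 114 alternative values of the counts of called enhancers and the sums, 101 stayed near the value reported and 13 moved. Counts have no direction to reverse, and of the sums 0 reversed. The 101 include counts from the tags recovered from RPM, which repeat the same data, and comparisons that stayed at 0 calls. They are therefore not read as a measure of stability. For IFN-γ against unstimulated cells, 4 calls over the 3 times became 2 in limma with a pseudocount of 2. For CpG, 2 became 4 in limma with 0.1, and for both stimuli 4 became 2 in DESeq2. For both stimuli against IFN-γ, 3 became 1 in DESeq2, 6 in limma with 0.5 and 5 with 2. For CpG against IFN-γ, 5 became 0 in DESeq2, 1 with no filter, 3 with the compared groups alone and 3 without the libraries given both stimuli for 3 h. With the compared groups alone, the +55.8 kb and +98.6 kb enhancers, called at 9 h, no longer passed the filter. Without the libraries given both stimuli for 3 h, the +98.6 kb enhancer did not pass it, and the +55.8 kb call was lost. The cause of the other changes was not tested. These counts are over the 13 enhancers that passed the filter, and 2 of their 18 calls are at enhancers that passed it only through the libraries with both stimuli at 3 h. The log2 ratio of the sum with both stimuli at 3 h to unstimulated cells was 2.35, and 1.88 without the leading enhancer. As a share of enhancer tags, the ratio to IFN-γ at 3 h was 1.00 in place of 1.71 and that to CpG at 3 h 1.30 in place of 1.84. Leaving out each library in turn gave 1 to 4 calls for IFN-γ against unstimulated cells (1 without unstimulated replicate 2), 2 to 2 for CpG, 2 to 4 for both stimuli (2 without unstimulated replicate 1), 1 to 3 for both against IFN-γ (1 without both-stimuli 9 h replicate 2 or IFN-γ 9 h replicate 1), 3 to 4 for CpG against IFN-γ, and 0 for the other comparisons. A group left with 1 library was assumed to vary like the others. The log2 ratios of the sum ranged over 2.07 to 2.59, 1.38 to 2.13 and 1.55 to 2.08.

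With the replicate number as a block, the calls for CpG against IFN-γ went from 5 to 4, with the +55.8 kb enhancer lost at 9 h, and no other count changed. Whether the numbers pair the libraries is not known, so nothing is read from this. Of 279 alternative values of the 18 single calls, 214 kept the call and 65 lost it. The 214 include the values from the tags recovered from RPM, which repeat the same counts. The 18 include calls at enhancers that passed the filter only through the libraries with both stimuli at 3 h. Depth limits the rest: 20 of the 33 enhancers had too few tags to be tested, and at the 14 with no tag in unstimulated cells a fall cannot be seen.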
